A study of Mus musculus with 14 samples.

Results

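Basement membrane glycoproteins and nephronectin were followed in MC3T3-E1 cells, osteoblast precursors of a mouse line. The members were the rows of the deposited tables whose gene symbol is Nid1, Nid2, Hspg2, Agrn, Lama4, Lama5, Lamb1, Lamc1 or Npnt, 9 of 24346 genes. Polyadenylated RNA was sequenced in 14 libraries of this 1 line. The series asks whether MACF1, a cytoskeletal linker protein, promotes osteoblast differentiation through proteins that repress Wnt signalling. The tested libraries carry the genotype label MACF1 knockdown and "sh" in their titles, with 2 libraries each at days 0, 3 and 5 and 1 at day 10. The other libraries carry the genotype label Control and "NC" in their titles, in the same numbers and at the same days. The sources used here do not say how the knockdown was made or when the days begin. The design text calls the pairs biological replicates, but separate cultures are not stated, so that the p-values reflect only how far these libraries differ, which may be technical spread.

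A basement membrane is a thin sheet of extracellular matrix built on a network of laminins, each a trimer of an alpha, a beta and a gamma chain, and a network of type IV collagen. Nidogens bind the laminin gamma chain encoded by Lamc1 and bridge it to type IV collagen, while perlecan and agrin are large proteoglycans that carry heparan sulfate chains. Nephronectin is a secreted protein with EGF-like repeats and an integrin-binding sequence, known as a ligand of the integrin that contains the Itga8 chain and studied in cultured osteoblasts for its part in their differentiation.

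The libraries held 13096527 to 23301514 counted reads with the knockdown label and 8044687 to 20124104 in control. Macf1 itself, whose level would check the labels, had 129 to 181 CPM in the libraries labelled knockdown and 55.2 to 205 CPM in control libraries, which overlap. CPM are counts scaled to a common library size by the trimmed mean of M values. Its log2 fold change averaged over days 0, 3 and 5 was 0.13 ± 0.24 (SE), with an adjusted p of 0.724 from edgeR's quasi-likelihood F test, with the Benjamini-Hochberg correction taken over the 13130 genes that were tested. Without control day 3 replicate 2, the control library at 55.2 CPM, that log2 fold change was -0.08. At day 10, with 1 library per condition, Macf1 had 129 CPM with the knockdown label and 196 CPM in control. Because the average was not called with all libraries, the tested libraries are called "labelled knockdown" throughout. Control day 3 replicate 2, with 8044687 reads, stood apart: its log CPM values correlated with replicate 1 at 0.924, against 0.987 to 0.989 in the 5 other replicate pairs. Against replicate 1 it was lower in 7 of the 8 members tested, by 1.76 on the log2 scale in Lamc1, and higher by 0.18 in Hspg2. Results of the members that rest on it are given with and without it. For the partner genes named further below this is done only in part. All 7 osteoblast markers were detected, with a summed level of 7716 to 15370 CPM in the libraries labelled knockdown and 10430 to 23470 CPM in control libraries. Single markers moved apart from that sum: Ibsp had 397 and 350 CPM at day 5 with the knockdown label and 8394 and 7278 CPM in control, Alpl had 0.217 and 0.209 CPM at day 0 with the knockdown label and 2.84 and 2.57 CPM in control, and Bglap had 9.09 and 9.40 CPM at day 5 with the knockdown label and 1.23 and 1.25 CPM in control. The endothelial list, of cells that also make basement membrane, summed to 0.421 to 2.38 CPM with the knockdown label and 0.257 to 0.718 CPM in control, with Cdh5, Kdr and Tek under 1 CPM in every library. The epithelial list summed to 1.57 to 8.07 CPM with the knockdown label and 0.0779 to 1.39 CPM in control, nearly all of it Cdh1. The chondrocyte list summed to 79.2 to 201 CPM with the knockdown label and 48.2 to 265 CPM in control, with Col2a1 higher than control at days 0 and 3 and lower at day 5 with the knockdown label, and Acan under 1 CPM in every library. The muscle list summed to 4.94 to 11.6 CPM with the knockdown label and 1.09 to 4.26 CPM in control, mostly Des, with Myog under 1 CPM in every library. The adipocyte and macrophage markers in the files were all under 1 CPM. The part of any of these markers in the results was not tested.

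Averaged over days 0, 3 and 5, 4 of the 8 members tested fell in the libraries labelled knockdown and none rose, with Nid1 furthest, then Npnt, Lamb1 and Lama4. Over all genes tested, 26.9% were called in either direction, 15.0% higher and 11.9% lower. The median log2 fold change was -0.39 over the 8 members and 0.00 over all genes tested. Without control day 3 replicate 2, 6 of the 8 fell and none rose, Lamc1 and Agrn being added, while 24.9% of all genes rose and 22.1% fell. Nid1 and Lamb1 had each of the 6 libraries labelled knockdown below both day-matched control libraries, which held for 9.55% of genes tested. Counted by day, Nid1, Npnt, Lamb1 and Lama4 fell at day 0, where 2.68% of genes fell. At day 3 the 1 member that fell was Nid1, where 5.52% of genes fell, and at day 5 it was again Nid1, where 2.47% did.

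**Figure D1:**
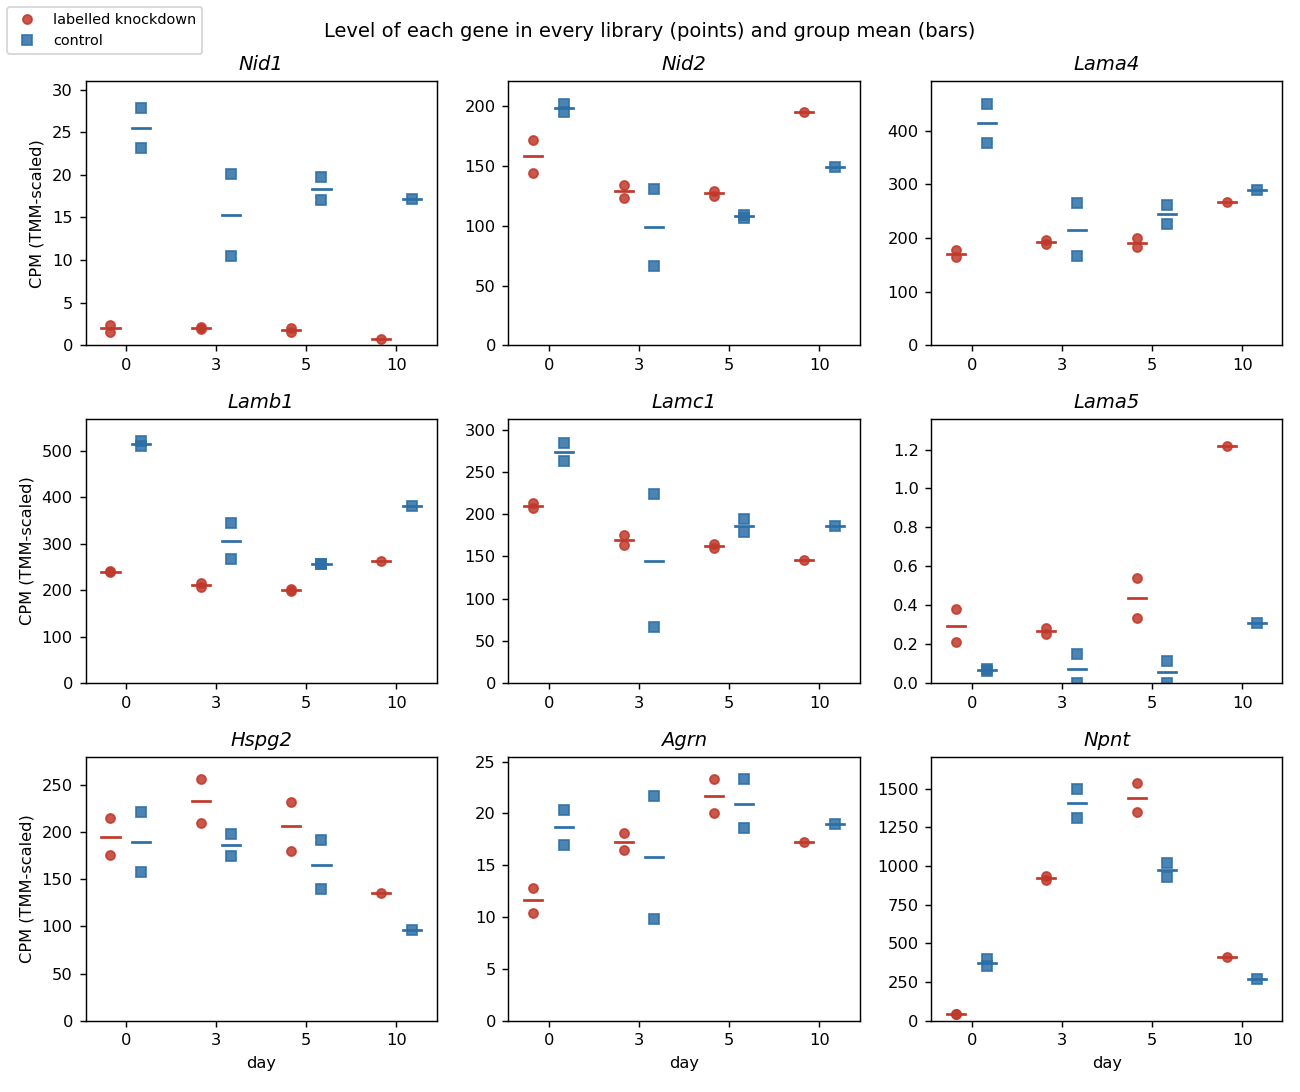
CPM of each of the 9 genes (vertical axis, from 0) in every library by day (horizontal axis), with libraries labelled knockdown in red left of control in blue, 1 point per library and a bar at the group mean. Nid1 stays at or under 2.37 CPM with the knockdown label, while Npnt starts at 44.7 and 46.3 CPM with the knockdown label and 352 and 401.5 CPM in control and crosses over by day 5.

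Nid1 encodes nidogen-1, a linker between laminin and type IV collagen (ENSMUSG00000005397.7, GRCm38 chr13:13437551-13512269, plus strand). Nid1 stood at 1.58 and 2.37 CPM in the day 0 pair labelled knockdown, 1.87 and 2.19 CPM in the day 3 pair, 1.98 and 1.54 CPM in the day 5 pair and 0.697 CPM in the day 10 library. Control Nid1 stood at 23.2 and 27.9 CPM in the day 0 pair, 20.1 and 10.4 CPM in the day 3 pair, 17.0 and 19.7 CPM in the day 5 pair and 17.1 CPM in the day 10 library. Every library labelled knockdown lay far below every control library, with no overlap at any day. In a bulk sample, less RNA per cell and fewer cells that express the gene cannot be told apart. The log2 fold change averaged over days 0, 3 and 5 was -3.33 ± 0.20 (SE), with an edgeR adjusted p of 3.47e-06. By day it was -3.71 ± 0.35 at day 0, -2.93 ± 0.35 at day 3 and -3.36 ± 0.35 at day 5, with edgeR adjusted p values of 0.000209, 0.000941 and 0.000389. The test of whether the difference varied between these days had an edgeR adjusted p of 0.723. The level rested on few reads, 23 to 47 per library labelled knockdown at days 0 to 5 and 71 to 401 per control library. On the log2(RPKM + 1) scale, which compresses low genes, the average was -1.57.

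The stretch of DNA just upstream of Nid1 is shown because this gene had the largest average difference of the members and was called at each of days 0, 3 and 5, and that of Lamb1 because it was the only other member with all 6 libraries labelled knockdown below control. Npnt is shown as the member whose difference changed with time. RefSeq windows of 250 bases before and 50 after an annotated start (build GRCm38.p6) were given for 6 of the 9 members, in 8 windows. The lines give, from 5′ to 3′ on the gene's strand, the bases that lie upstream of both the RefSeq and the GENCODE start, with motif matches in capitals. Nid1 is chr13:13437352-13437550 (plus), Lamb1 is chr12:31265043-31265233 (plus) and Npnt is chr3:132950292-132950541 (minus).
Nid1: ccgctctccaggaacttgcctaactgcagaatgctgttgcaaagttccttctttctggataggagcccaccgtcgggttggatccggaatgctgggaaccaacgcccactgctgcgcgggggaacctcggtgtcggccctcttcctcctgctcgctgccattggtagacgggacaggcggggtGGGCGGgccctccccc
Lamb1: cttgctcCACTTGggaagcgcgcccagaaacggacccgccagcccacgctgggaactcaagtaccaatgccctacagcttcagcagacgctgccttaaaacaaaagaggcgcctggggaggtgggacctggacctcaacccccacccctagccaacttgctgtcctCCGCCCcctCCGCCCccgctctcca
Npnt: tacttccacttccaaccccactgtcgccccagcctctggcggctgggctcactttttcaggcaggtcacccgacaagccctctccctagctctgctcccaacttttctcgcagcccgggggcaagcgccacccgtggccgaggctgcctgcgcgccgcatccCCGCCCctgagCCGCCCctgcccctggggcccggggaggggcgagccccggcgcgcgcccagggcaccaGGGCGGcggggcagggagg
In these lines the capitals mark the GC box GGGCGG, read on either strand, and in Lamb1 also 1 E-box, CANNTG, which overlaps no GC box. The GC box was present in 7 of the 8 windows of members, and in 35.7% of all 32851 RefSeq windows of that length. The E-box was present in 4 of the 8 windows, against 72.3% of all windows. The other motifs searched, also on both strands, matched in 0 of the 8 windows. A Tcf/Lef core, CTTTGA, was present in 16.0% of all windows. The Runx core TGTGGT was present in 16.8%. A TATA box, TATAAA, was found in 13.6%, and the AP-1 site TGACTCA in 5.20% of all windows. The full windows of Nid1, Lamb1 and Npnt held 64.7%, 63.7% and 76.7% G and C bases, against a median of 52.7% over all windows.

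Nid2, the gene of nidogen-2, the other linker of the family (ENSMUSG00000021806.3, chr14:19751265-19811787, plus strand), did not follow Nid1. Nid2 stood at 172 and 144 CPM in the day 0 pair labelled knockdown, 135 and 123 CPM in the day 3 pair, 129 and 125 CPM in the day 5 pair and 195 CPM in the day 10 library. Control Nid2 stood at 202 and 195 CPM in the day 0 pair, 131 and 66.7 CPM in the day 3 pair, 107 and 109 CPM in the day 5 pair and 149 CPM in the day 10 library. Nid2 was lower with the knockdown label at day 0, overlapped at day 3 and was higher at days 5 and 10. Averaged over the 3 days the log2 fold change was 0.10 ± 0.15 (SE, edgeR adjusted p = 0.677; 95% confidence interval -0.24 to 0.44), and -0.04 without control day 3 replicate 2. No single day was called with all libraries. Without that library the fall at day 0, by 0.33 on the log2 scale, had an edgeR adjusted p of 0.0298. The gene shares 437 exon bases with Rtraf on the opposite strand, which had up to 4319 counts in a library. The sources used here do not give the strand setting of the counting, so the level of Nid2 is uncertain.

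Because the deposited RPKM values are per kilobase of transcript, they allow both nidogens to be set on 1 scale. The shares carry the uncertainty of the Nid2 level, which makes up most of the sum. Nid1 made up 0.739% and 1.31% of the summed RPKM of both nidogens at day 0 with the knockdown label, against 8.50% and 10.4% in control. The day 3 shares were 1.12% and 1.41% with the knockdown label and 11.1% and 11.2% in control. By day 5 they were 1.24% and 0.989% with the knockdown label and 11.4% and 12.8% in control. At day 10 it was 0.277% in the library labelled knockdown and 8.48% in the control library. The shares did not overlap at any day, and both control libraries of day 3 agreed although the CPM of both genes differed between them.

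**Figure D2:**
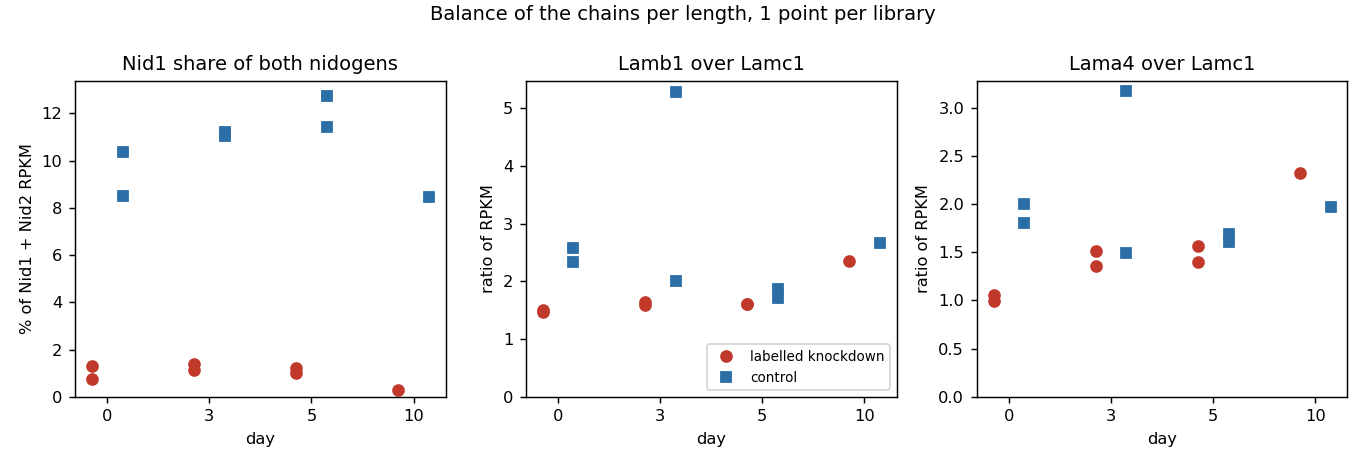
Balance between chains per library and day, from the deposited RPKM: Nid1 as a percent of Nid1 plus Nid2 (left), Lamb1 over Lamc1 (middle) and Lama4 over Lamc1 (right), with libraries labelled knockdown in red left of control in blue and each axis from 0. The Nid1 share is 0.277% to 1.41% with the knockdown label and 8.48% to 12.8% in control; the control library at 5.28 for Lamb1 over Lamc1 is day 3 replicate 2.

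Of the laminin chains, the beta chain Lamb1 and the alpha chain Lama4 fell, most at day 0, while the gamma chain Lamc1 was not called. Lamb1 encodes laminin beta-1, a chain of most embryonic and many adult laminins (ENSMUSG00000002900.13, chr12:31265234-31329644, plus strand). Lamb1 stood at 240.2 and 239 CPM in the day 0 pair labelled knockdown, 215 and 206 CPM in the day 3 pair, 202 and 198 CPM in the day 5 pair and 263 CPM in the day 10 library. Control Lamb1 stood at 520.5 and 511 CPM in the day 0 pair, 344 and 267 CPM in the day 3 pair, 256 and 256 CPM in the day 5 pair and 380.1 CPM in the day 10 library. Lamb1 was lower with the knockdown label at every day, and the groups came nearest at day 5. The log2 fold change averaged over days 0, 3 and 5 was -0.67 ± 0.10 (SE, edgeR adjusted p = 0.000858). By day it was -1.11 ± 0.17 at day 0, with an edgeR adjusted p of 0.00331, then -0.54 ± 0.17 at day 3 (0.0638) and -0.36 ± 0.17 at day 5 (0.262). With the replicate block the day 3 difference was called, with an edgeR adjusted p of 0.0436. With control day 3 replicate 2 left out, days 3 and 5 were both called, with edgeR adjusted p values of 0.000489 and 0.00556, and the difference varied between the days, with an edgeR adjusted p of 0.00523 against 0.436 with all libraries.

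Lama4 encodes laminin alpha-4, the alpha chain of laminins of vessel walls, muscle and mesenchymal cells (ENSMUSG00000019846.9, chr10:38965515-39110188, plus strand). Lama4 stood at 164 and 178 CPM in the day 0 pair labelled knockdown, 189.5 and 197 CPM in the day 3 pair, 183 and 199 CPM in the day 5 pair and 268 CPM in the day 10 library. Control Lama4 stood at 377 and 450.1 CPM in the day 0 pair, 265 and 165 CPM in the day 3 pair, 227 and 261 CPM in the day 5 pair and 289.8 CPM in the day 10 library. Lama4 was lower with the knockdown label at days 0, 5 and 10, and overlapped with control at day 3 where control replicate 2 lay below both libraries labelled knockdown. The log2 fold change averaged over the 3 days was -0.60 ± 0.13 (SE, edgeR adjusted p = 0.00808), and -1.28 ± 0.23 at day 0 (edgeR adjusted p = 0.00749). Day 3 was -0.16 ± 0.22 and day 5 was -0.35 ± 0.22, with edgeR adjusted p values of 0.652 and 0.427. Leaving out control day 3 replicate 2, both days were called, at -0.45 and -0.36, with edgeR adjusted p values of 0.0323 and 0.0277, and the difference varied between days, with an edgeR adjusted p of 0.00606 against 0.315 with all libraries. On the deposited RPKM values limma did not call the average (adjusted p = 0.0617 and 0.0641 with pseudocounts of 1 and 0.1). The day 0 call was lost without either library labelled knockdown of that day (edgeR adjusted p = 0.0917 without replicate 1 and 0.0653 without replicate 2) and without control day 0 replicate 2 (0.0782).

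Lamc1 encodes laminin gamma-1, the chain that nidogens bind (ENSMUSG00000026478.12, chr1:153218922-153332786, minus strand). Lamc1 stood at 207 and 213 CPM in the day 0 pair labelled knockdown, 176 and 164 CPM in the day 3 pair, 164 and 160.2 CPM in the day 5 pair and 145 CPM in the day 10 library. Control Lamc1 stood at 263 and 284 CPM in the day 0 pair, 224 and 65.8 CPM in the day 3 pair, 178 and 194.5 CPM in the day 5 pair and 186 CPM in the day 10 library. Lamc1 was lower with the knockdown label at days 0, 5 and 10, while at day 3 its libraries lay between the control libraries. With all libraries the log2 fold change averaged over the 3 days was -0.12 ± 0.24 (SE, edgeR adjusted p = 0.745), with a 95% confidence interval of -0.65 to 0.41. Leaving out control day 3 replicate 2, it was -0.33 ± 0.06 and called (edgeR adjusted p = 0.000485), and without control day 3 replicate 1 it was 0.26 and called the other way (edgeR adjusted p = 0.00206). The average of Lamc1 therefore rests on which control library of day 3 is used. By day, Lamc1 differed by -0.38 ± 0.41 at day 0, 0.22 ± 0.41 at day 3 and -0.20 ± 0.41 at day 5. None was called with all libraries (SE, edgeR adjusted p = 0.701, 0.730 and 0.853). Over the 22 alternatives the log2 fold change of Lamc1 ranged from -0.44 to -0.32 at day 0 and from -0.28 to -0.14 at day 5.

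Lama5, the alpha chain of many adult epithelial laminins (ENSMUSG00000015647.9, chr2:180176373-180225859, minus strand), was near the limit of detection and did not pass the filter on low counts, so it was not tested in the main fit. In the alternative without that filter, 5 members were called in the average against 4, the added one being Lama5. There 4081 of all genes were called, against 3530. Labelled knockdown, the day 0 pair held 7 and 3 counts, the day 3 pair 5 and 4, the day 5 pair 8 and 8, and the day 10 library 21. In control the day 0 pair held 1 and 1 counts, the day 3 pair 0 and 1, the day 5 pair 2 and 0, and the day 10 library 6. Per library, 3 counts is the limit that a count of 0 allows. Lama5 was above control in CPM with the knockdown label at every day, at counts at which single reads matter. The share of all genes above control in this way is not given here.

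The balance of the laminin chains was also read per length. At day 0 the RPKM of Lamb1 was 1.51 and 1.46 times that of Lamc1 in the libraries labelled knockdown, against 2.58 and 2.34 times in control. Lama4 over Lamc1 was 0.996 and 1.05 at day 0 with the knockdown label, against 1.81 and 2.00 in control. At day 5 Lamb1 over Lamc1 was 1.60 and 1.61 with the knockdown label and 1.87 and 1.72 in control, and Lama4 over Lamc1 was 1.40 and 1.57 with the knockdown label and 1.60 and 1.69 in control. Both ratios were lower with the knockdown label at days 0 and 5 without overlap, with a smaller gap at day 5. The day 3 pair labelled knockdown had 1.60 and 1.64 for Lamb1 over Lamc1 and 1.36 and 1.51 for Lama4 over Lamc1. At day 3 control replicate 2 stood apart at 5.28 for Lamb1 over Lamc1 and 3.17 for Lama4 over Lamc1, against 2.01 and 1.49 in replicate 1, so that Lama4 over Lamc1 overlapped between the labels at day 3. At day 10 Lamb1 over Lamc1 was 2.36 with the knockdown label and 2.67 in control, while Lama4 over Lamc1 ran the other way, at 2.32 with the knockdown label and 1.97 in control.

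**Figure D3:**
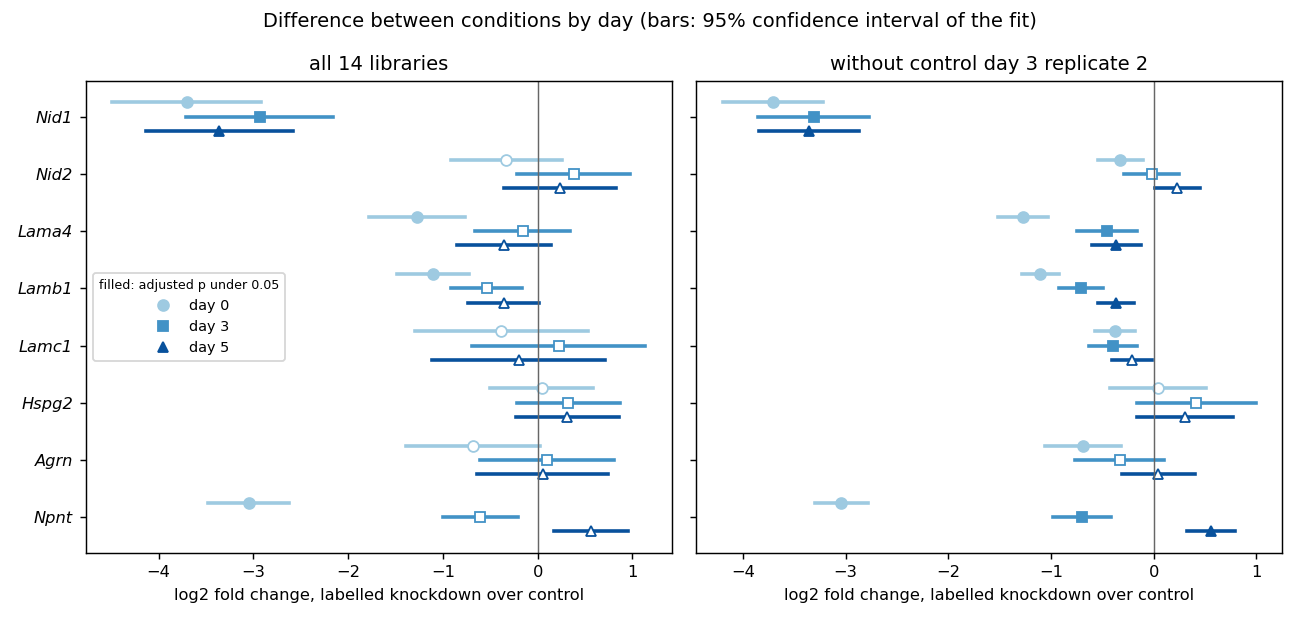
Log2 fold change of the libraries labelled knockdown over control (horizontal axis) for the 8 members tested, at days 0, 3 and 5, with 95% confidence intervals of the edgeR fit, from all 14 libraries (left) and without control day 3 replicate 2 (right); filled symbols have an adjusted p under 0.05. Npnt runs from -3.05 at day 0 over -0.60 at day 3 to 0.56 at day 5 with all libraries, and intervals narrow in the right panel.

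The proteoglycan genes were not called in any comparison with all libraries. Hspg2 encodes perlecan, the core protein of the main heparan sulfate proteoglycan of basement membranes (ENSMUSG00000028763.15, chr4:137468769-137570630, plus strand). Hspg2 stood at 175 and 214 CPM in the day 0 pair labelled knockdown, 209 and 256 CPM in the day 3 pair, 179.9 and 232 CPM in the day 5 pair and 136 CPM in the day 10 library. Control Hspg2 stood at 158 and 221 CPM in the day 0 pair, 174 and 197 CPM in the day 3 pair, 139 and 192 CPM in the day 5 pair and 95.9 CPM in the day 10 library. The groups overlapped at days 0 and 5, and at day 3 both libraries labelled knockdown lay above control. In all 6 replicate pairs replicate 2 was above replicate 1. The log2 fold change averaged over the 3 days was 0.23 ± 0.14 (SE, edgeR adjusted p = 0.264), with a 95% confidence interval of -0.09 to 0.54. With the replicate block the SE was 0.08 and the edgeR adjusted p was 0.0541.

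Agrn encodes agrin, a heparan sulfate proteoglycan best known from the nerve-muscle synapse (ENSMUSG00000041936.16, chr4:156165290-156197488, minus strand), and was lower in level than perlecan throughout, with 0.940 to 2.82 RPKM over the 14 libraries against 6.13 to 18.0 RPKM for Hspg2. Agrn stood at 10.4 and 12.8 CPM in the day 0 pair labelled knockdown, 16.4 and 18.1 CPM in the day 3 pair, 20.1 and 23.4 CPM in the day 5 pair and 17.2 CPM in the day 10 library. Control Agrn stood at 16.9 and 20.4 CPM in the day 0 pair, 21.7 and 9.84 CPM in the day 3 pair, 18.6 and 23.3 CPM in the day 5 pair and 19.0 CPM in the day 10 library. Agrn lay below control with the knockdown label at day 0 and overlapped with it at days 3 and 5. The log2 fold change was -0.69 ± 0.32 at day 0 (SE, edgeR adjusted p = 0.270) and -0.18 ± 0.18 averaged over the 3 days (edgeR adjusted p = 0.511). Both were called without control day 3 replicate 2, at -0.69 and -0.32, with edgeR adjusted p values of 0.0105 and 0.0216.

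Npnt, the gene of nephronectin (ENSMUSG00000040998.16, chr3:132881745-132950291, minus strand), was far lower at day 0 in the libraries labelled knockdown, and its difference from control then changed with time. Npnt stood at 44.7 and 46.3 CPM in the day 0 pair labelled knockdown, 912 and 938 CPM in the day 3 pair, 1346 and 1536 CPM in the day 5 pair and 412 CPM in the day 10 library. Control Npnt stood at 352 and 401.5 CPM in the day 0 pair, 1499 and 1311 CPM in the day 3 pair, 930.3 and 1019 CPM in the day 5 pair and 272 CPM in the day 10 library. Npnt lay below control with the knockdown label at days 0 and 3 and above it at days 5 and 10, with no overlap at any day. The log2 fold change was -3.05 ± 0.19 (SE) at day 0, with an edgeR adjusted p of 1.34e-05. It was -0.60 ± 0.18 at day 3 and 0.56 ± 0.18 at day 5, with edgeR adjusted p values of 0.0519 and 0.0883. Day 3 was called with the replicate block (edgeR adjusted p = 0.0360), and both days were called without control day 3 replicate 2, at -0.70 and 0.56, with edgeR adjusted p values of 0.00293 and 0.00235. The average over days 0, 3 and 5, -1.03 ± 0.10 (SE, edgeR adjusted p = 7.80e-05), thus joins differences of opposite sign.

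The test of whether the difference between conditions varied between days 0, 3 and 5 called Npnt, with an edgeR adjusted p of 0.000692, and none of the other 7 members tested; 0.998% of all genes were called. In its signed form, the change from day 0 to day 5 with the knockdown label minus that in control was 3.61 ± 0.26 on the log2 scale for Npnt (SE, edgeR adjusted p = 0.000206), where 0.800% of genes were called higher. The joint test called Npnt in all 22 alternatives run, with adjusted p values up to 0.0109. It called Lamb1 and Lama4 as well without control day 3 replicate 2. At day 10, with 1 library per condition and no replicate check, Npnt had 412 CPM with the knockdown label and 272 CPM in control.

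In time, Npnt was the member that rose most in both conditions. With the knockdown label it rose by 4.34 ± 0.20 on the log2 scale from day 0 to day 3 (SE, edgeR adjusted p = 4.34e-06) and by 4.98 ± 0.21 from day 0 to day 5 (edgeR adjusted p = 1.50e-06). In control it rose by 1.90 ± 0.18 from day 0 to day 3 (edgeR adjusted p = 0.000473) and by 1.37 ± 0.18 from day 0 to day 5 (edgeR adjusted p = 0.00135), where 5.29% and 4.32% of genes rose. These changes share the day 0 libraries within a condition. Npnt was, with the knockdown label and all libraries, the only member called from day 0 to day 3, where 0.594% of genes rose, and from day 0 to day 5, where 1.45% did. Over these intervals Agrn changed by 0.57 ± 0.32 and 0.90 ± 0.32 with the knockdown label (SE, edgeR adjusted p = 0.593 and 0.247). Lamc1 changed by -0.31 ± 0.41 and -0.37 ± 0.41 (SE, edgeR adjusted p = 0.915 and 0.857). Without control day 3 replicate 2, Agrn changed by 0.59 and 0.91 and Lamc1 by -0.30 and -0.37, with smaller SE. From day 3 to day 5 no member was called with either label, where 0.0152% of genes were called with the knockdown label and 1.04% in control. Without control day 3 replicate 2, Npnt from day 3 to day 5 was 0.63 on the log2 scale with the knockdown label and -0.62 in control, both called, with edgeR adjusted p values of 0.0268 and 0.0202.

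Of the nidogen, laminin and proteoglycan genes none was called higher with time in control libraries, and 3 fell from day 0 to day 3, where 5.45% of genes fell. Lamb1 fell by 0.76 on the log2 scale (SE 0.17, edgeR adjusted p = 0.0221), Lama4 fell by 0.94 (SE 0.23, edgeR adjusted p = 0.0284) and Nid2 fell by 1.0 (SE 0.27, edgeR adjusted p = 0.0415). The falls without control day 3 replicate 2 were 0.57, 0.63 and 0.59 on the log2 scale and all were called, with edgeR adjusted p values of 0.00192, 0.00629 and 0.00524. These calls were sensitive to single libraries, also of groups outside the contrast, which share its estimate of the spread. Leaving out any 1 library of days 0, 3 or 5 other than the control libraries of day 3 ended the calls of Nid2 (edgeR adjusted p = 0.0685 to 0.184) and Lama4 (0.0519 to 0.199). The call of Lamb1 was lost without control day 0 replicate 1 (0.115) or replicate 2 (0.135) and without control day 5 replicate 1 (0.0502). From day 0 to day 5 Lamb1 fell by 1.01 in control (SE 0.17, edgeR adjusted p = 0.00520), where 3.82% of genes fell. That call was lost without control day 5 replicate 1 (edgeR adjusted p = 0.0703) or replicate 2 (0.0618). Over the same interval Lamb1 changed by -0.26 ± 0.17 with the knockdown label, with an edgeR adjusted p of 0.658. At day 10, with 1 library per condition, Lamb1, Lama4 and Nid2 were above their day 5 level with both labels.

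Per length, the order of the members at day 0 differed between the labels. Labelled knockdown, Lamb1 was highest at 39.4 ± 0.375 RPKM, then Nid2 at 31.1 ± 3.52, Lama4 at 27.1 ± 1.90, Lamc1 at 26.5 ± 0.842, Hspg2 at 13.2 ± 2.03, Npnt at 9.11 ± 0.339, Agrn at 1.43 ± 0.226 and Nid1 at 0.315 ± 0.0919 (SD, n = 2 each). In control libraries, Lamb1 was highest at 82.5 ± 1.12 RPKM, then Npnt at 73.4 ± 8.87, Lama4 at 64.1 ± 9.74, Nid2 at 38.0 ± 0.141, Lamc1 at 33.6 ± 2.75, Hspg2 at 12.5 ± 3.27, Nid1 at 3.96 ± 0.622 and Agrn at 2.24 ± 0.354 (SD, n = 2 each). With the knockdown label Lama4 and Lamc1 lay within their spread of each other, as did Nid2 and Lama4. Nid2 had 33.6 and 28.6 RPKM there and Lama4 had 25.8 and 28.5 RPKM, and the level of Nid2 is uncertain. In control, Npnt and Lama4 lay within their spread of each other. At day 5 Npnt was highest with both labels, at 281 ± 26.6 RPKM with the knockdown label and 189 ± 16.3 RPKM in control (SD, n = 2 each).

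Partner genes of the same matrix were counted in 5 lists, with the average over days 0, 3 and 5 as the comparison. Of the basement membrane collagens, 7 of 9 were tested, of which 5 rose, 1 fell and 1 was not called, against 15.0% higher and 11.9% lower over all genes. Their median log2 fold change was 1.04 against 0.00 over all genes. Without control day 3 replicate 2 their median was 0.92, against 0.01 over all genes. Col4a1, a chain of the main type IV collagen network, had 170 to 232 CPM at days 0 to 5 with the knockdown label and 27.6 to 126 CPM in control, a log2 fold change of 1.24 ± 0.18 (SE, edgeR adjusted p = 0.000895). Col4a2, its partner chain in the same trimer, had 184 to 228 CPM with the knockdown label and 45.6 to 127 CPM in control, at 1.04 ± 0.15 (SE, edgeR adjusted p = 0.000944). At days 0 to 5 the libraries did not overlap for either gene, but the share of all genes so separated is not given here. Without control day 3 replicate 2 the log2 fold change was 1.07 for Col4a1 and 0.91 for Col4a2. By day, with all libraries, both were called only at day 3 (edgeR adjusted p = 0.00537 and 0.00919). At days 0 and 5 the edgeR adjusted p values were 0.103 and 0.171 for Col4a1, and 0.125 and 0.0773 for Col4a2. Col4a6, a minor type IV chain, rose by 1.49 ± 0.23 on the log2 scale (SE, edgeR adjusted p = 0.00124), and Col18a1, the source of endostatin, by 1.28 ± 0.10 (edgeR adjusted p = 1.07e-05). Without control day 3 replicate 2 these rises were 1.30 and 1.24. Col15a1, a relative of Col18a1 not among the genes named by rule, was the 1 that fell, by 0.97.

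Of the other laminin and netrin chains, 6 of 9 were tested, of which 2 rose, none fell and 4 were not called, against 15.0% higher and 11.9% lower over all genes. Ntn4, a netrin that binds laminin, is named here after its values were seen because the count is small. It averaged 3.32 CPM over the libraries, and rose by 2.33 ± 0.22 on the log2 scale (SE, edgeR adjusted p = 6.29e-05).

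Of the other basement membrane glycoproteins, 8 of 16 were tested, of which 2 rose, 3 fell and 3 were not called, against 15.0% higher and 11.9% lower over all genes. Tinagl1, a matrix protein related to tubulointerstitial nephritis antigen, had 4.50 to 21.1 CPM at days 0 to 5 with the knockdown label and 0.771 to 3.79 CPM in control, at 1.82 ± 0.27 on the log2 scale (SE, edgeR adjusted p = 0.000889). Sparc, which encodes the collagen-binding protein osteonectin, was the most abundant of the list, with 1431 to 3062 CPM at days 0 to 5 with the knockdown label and 2333 to 5197 CPM in control. It fell by 0.64 (SE 0.11, edgeR adjusted p = 0.00185). Fbln2, a fibulin that binds nidogen, fell by 0.41 (SE 0.12, edgeR adjusted p = 0.0299).

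Of the receptors, 10 of 12 were tested, of which 2 rose, 1 fell and 7 were not called, near the 26.9% called over all genes. The median log2 fold change of the receptors was 0.00 with all libraries. Without control day 3 replicate 2 it was -0.02, against 0.01 over all genes. Itga8, the alpha chain of the nephronectin-binding integrin, had 6.33 and 6.68 CPM at day 0 with the knockdown label and 33.6 and 37.6 CPM in control. At day 5 it had 21.1 to 21.6 CPM with the knockdown label and 19.3 to 19.8 CPM in control. At day 10, with 1 library per condition, it had 12.8 CPM with the knockdown label and 29.8 CPM in control, the opposite order to Npnt. The joint test between days did not call Itga8, with an edgeR adjusted p of 0.124. The signed test of its change from day 0 to day 5, at 2.58 ± 0.53 on the log2 scale (SE), had an edgeR adjusted p of 0.0493, and 0.0734 with the replicate block. Averaged over the days it fell by 1.10 (SE 0.21, edgeR adjusted p = 0.00474). Itga6, an alpha chain of laminin-binding integrins, had 26.0 to 59.5 CPM at days 0 to 5 with the knockdown label and 0.588 to 16.1 CPM in control, at 2.12 ± 0.32 on the log2 scale (SE, edgeR adjusted p = 0.00113). The libraries did not overlap for Itga6, but the share of all genes so separated is not given here. Without control day 3 replicate 2 its log2 fold change was 1.88. Itgb1, a beta chain shared by these integrins, was not called, at 0.20 ± 0.18 (SE, edgeR adjusted p = 0.442). Itgb4, another beta chain of the list, was the other receptor gene that rose, by 0.87 ± 0.24 (SE, edgeR adjusted p = 0.0236). Its mean was 2.455 CPM, under the 5 CPM that the rule asks. Both beta chains are named here although the rule did not choose them.

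Of the genes of heparan sulfate synthesis and editing, which act on the chains that perlecan and agrin carry, 16 of 18 were tested, of which 1 rose, 5 fell and 10 were not called, against 15.0% higher and 11.9% lower over all genes. Of the 16, 1 rose and 7 fell without control day 3 replicate 2, where 24.9% of all genes rose and 22.1% fell. Hs6st2, a heparan sulfate sulfotransferase, had 42.8 to 69.3 CPM at days 0 to 5 with the knockdown label and 87.6 to 129 CPM in control, and fell by 1.10 (SE 0.13, edgeR adjusted p = 0.000266). Hs6st1, of the same family, had 40.1 to 65.2 CPM with the knockdown label and 21.6 to 45.1 CPM in control, and rose by 0.73 (SE 0.11, edgeR adjusted p = 0.00115). Both sulfotransferases thus moved in opposite directions. Ext2, a chain-elongating enzyme, fell by 0.49 (SE 0.14, edgeR adjusted p = 0.0268), and B3galt6, which acts in the linker to the core protein, by 0.50 (SE 0.14, edgeR adjusted p = 0.0255).

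**Figure D4:**
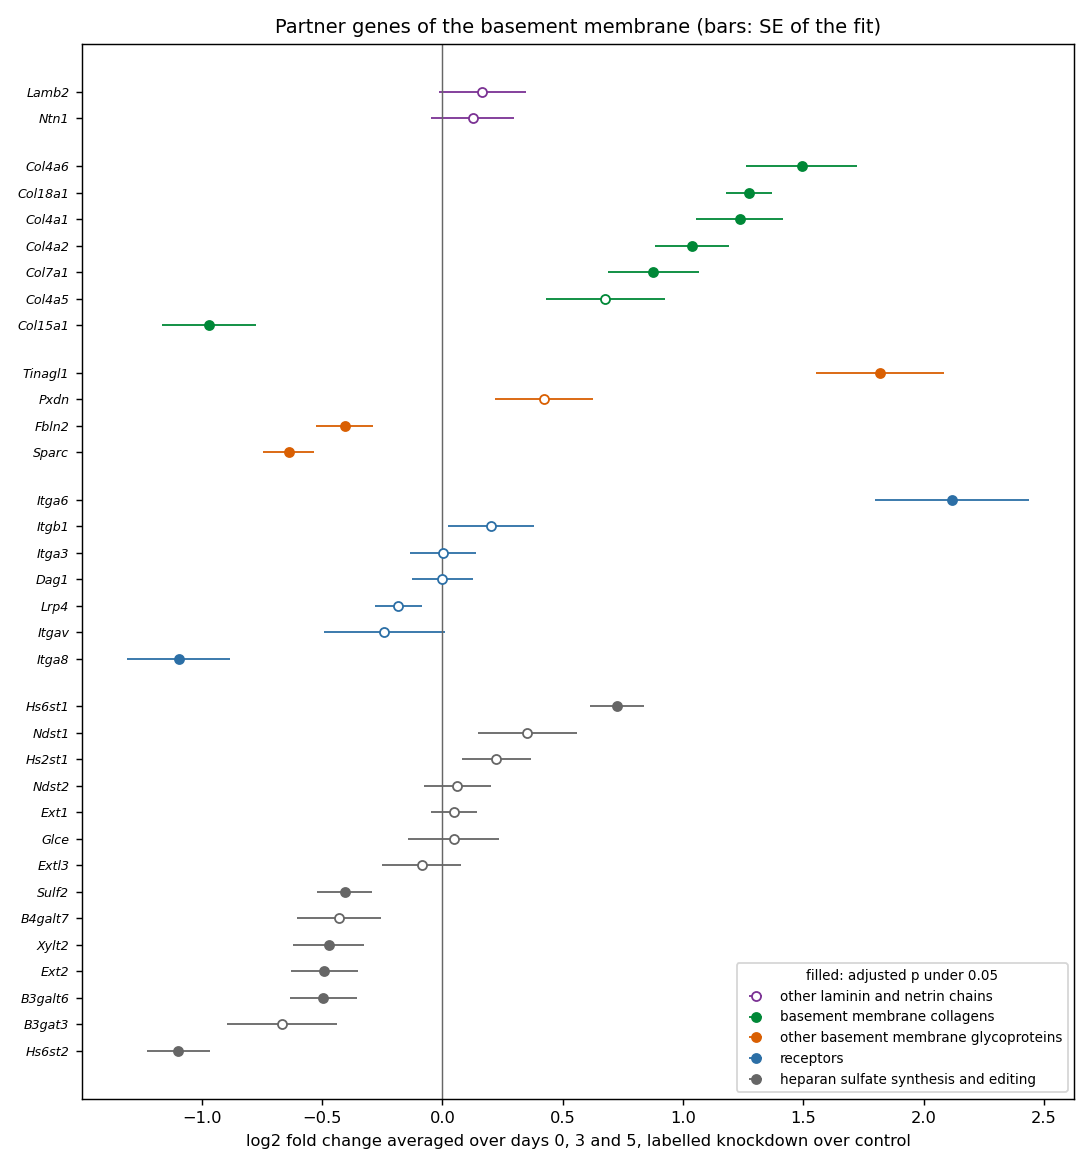
Log2 fold change averaged over days 0, 3 and 5, libraries labelled knockdown over control (horizontal axis, bars: SE of the edgeR fit), for the tested genes of the 5 lists with a mean of at least 5 CPM; filled symbols have an adjusted p under 0.05. Most basement membrane collagens lie to the right of 0, with Col4a6 at 1.49 and Col15a1 at -0.97, while Hs6st2 at -1.10 and Hs6st1 at 0.73 lie on opposite sides.

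The genes most alike each member were taken by Pearson's correlation of log2 CPM over the 14 libraries, which share conditions, days and depth, so that r describes the pattern only. Npnt was most like Fgfr3 (r = 0.966), Nrp2 (0.953) and St7 (0.928), and the same 3 genes came first over the 13 libraries without control day 3 replicate 2. Nid1 was most like Usp28 (0.955), Rbm43 (0.952) and Cmtm6 (0.951), but without that library the first 3 were Pcbp1, Fzd7 and Klhl8. Lamb1 was most like Zbtb25 (0.975), Tox (0.959) and B3glct (0.953), and Lama4 was most like Gpc6 (0.942), Dennd2a (0.922) and Sfrp2 (0.913). Nid2 was most like Irgm2 (0.962), Arhgap28 (0.946) and Parp14 (0.929), and Lamc1 was most like Adss (0.978), Khdrbs1 (0.973) and Cpne1 (0.971). Hspg2 was most like Cct3 (0.927), Prcp (0.913) and Smap2 (0.910), and for Lamc1 and Hspg2 none of these came among the first 3 without control day 3 replicate 2. Agrn was most like Ptpn13 (0.963), Kctd10 (0.898) and Mapkbp1 (0.898). Between members, Lama4 and Lamb1 had r = 0.874 over the 14 libraries, with 0.367 within the 7 libraries labelled knockdown and 0.873 within the 7 control libraries. Nid1 and Nid2 had r = -0.119 over the 14 libraries, which joins -0.769 within the libraries labelled knockdown and 0.902 within control. With the knockdown label Nid1 had only 12 to 47 counts per library. There the single day 10 library held the lowest value of Nid1, 0.697 CPM, and the highest of Nid2, 195 CPM. How far r rests on that library was not tested.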

How the data were processed

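RNA from 14 libraries was analysed from tables that the authors deposited. Per the labels' protocols, polyadenylated RNA was selected and directional libraries were made. Tools named in the submitters' processing notes are bcl2fastq, TopHat2 and edgeR, with the build GRCm38; for roles, versions and counting tool, the entry is not given in the sources used here. Deposited were raw counts of 24346 genes and, from the authors as well, RPKM (scaled by length and depth) of 24340 genes. Over 3325 genes, RPKM equalled the counts scaled by gene and library within 0.07%. Positions come from GENCODE M21 of GRCm38, which matched 24181 genes.

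Genes with at least 10 counts in 2 libraries were tested, 13130 in all. With edgeR 4.0.16 in R 4.3.3, 8 group means were fitted jointly to the 14 libraries (trimmed mean of M values, robust quasi-likelihood F test with 6 degrees of freedom left), with Benjamini-Hochberg adjustment over all genes and a threshold of 0.05. Groups of 2 libraries limit precision, and day 10 has 1 per label, so that it has values only. Alternatives used DESeq2 1.42.0, limma 3.58.1 on log2 RPKM, other scalings and filters, a replicate block and left-out libraries. Same-numbered libraries' deviations correlated at 0.234, 0.141 and 0.228 at days 0, 3 and 5. Groups of different days gave 0.0393 to 0.319, so a pairing by number is a hint from the data only. The main fit had no term for it, and only the replicate block, run as an alternative, did. Replicate pairs differed by more than sampling noise (chi-square per degree of freedom 12.7 to 174.9). The tests were first tested on simulated data.

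The genes named were the 9 members and, per list, up to 4 genes with the largest average fold change among those with an adjusted p under 0.05 and a mean of at least 5 CPM; likeness gave up to 3 per member. The values of 1 list gene are not reported here. The members and lists were chosen with earlier results of these data known. Control day 3 replicate 2 was left out in alternatives because it stood apart, and the likeness without it was added after seeing the data.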

Additional observations from a re-analysis of the deposited data

Results flagged for a closer look

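Npnt was singled out because the difference between the labels varied between days by a test of that variation itself, with an edgeR adjusted p of 0.000692 over all genes tested. Its log2 fold change, labelled knockdown over control, was -3.05 at day 0, -0.60 at day 3 and 0.56 at day 5. At days 0 and 3 both libraries labelled knockdown were lower than either control library, and at day 5 both were higher. Itga8, the receptor chain gene, was singled out because its change from day 0 to day 5 differed between the labels, with an edgeR adjusted p of 0.0493 over all genes tested and 0.0734 with the replicate block.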

How the results depend on the processing

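For the 8 members tested, over up to 22 alternatives and 12 comparisons, 1899 of 2072 values kept their direction and side of the threshold, 103 gained a call, 30 lost one and 40 changed sign. The cause was not tested. The number of all genes called moved between the fits as well, as given below for the average and the joint test. The counts of members called that follow therefore describe the fits and are not a result about the members. Leaving out 1 library moved the count of members called between 3 and 7 at day 0, 1 and 6 at day 3, and 1 and 4 at day 5. For control it ranged over 1 to 7 from day 0 to day 3, 0 to 6 from day 3 to day 5 and 1 to 5 from day 0 to day 5, and for the knockdown label over 1 to 3, 0 to 1 and 1 to 3. The joint test called 1 to 7 members (43 to 6510 of all genes, against 131) and the signed one 1 to 4, and the average called 2389 to 7604 of all genes, against 3530. Without day 3 the members called were 7 at day 0, 4 at day 5, 5 for control and 3 for the knockdown label from day 0 to day 5, and 4 in either test between days, with 5370 of all genes in the average and 1227 in the joint test. At day 3, 3 members were called with DESeq2 size factors, upper-quartile scaling, the DESeq2 test, a minimum of 50 counts or the replicate block, against 1; the replicate block ended no call of a member. The DESeq2 test called 2 members at day 5, 1 with each label from day 3 to day 5, 4 for control from day 0 to day 5 (upper-quartile scaling also 4), 2 in either test between days, and 433 of all genes in the joint test, where no filter gave 643.

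Signs changed only in values that were not called with all libraries. With 1 library left out, the average ranged from -0.039 to 0.29 for Nid2, -0.32 to 0.058 for Agrn and -0.33 to 0.26 for Lamc1. Day 0 of Hspg2 ranged from -0.18 to 0.30. Day 3 ranged from -0.021 to 0.95 for Nid2, -0.33 to 0.81 for Agrn, -0.45 to 0.22 for Lama4 and -0.40 to 1.37 for Lamc1, and day 5 of Agrn from -0.12 to 0.22. In control, day 3 against day 0 ranged from -0.25 to 0.24 for Hspg2 and -0.92 to 0.23 for Agrn. Day 5 against day 3 ranged from -0.13 to 0.81 for Nid1, -0.28 to 0.69 for Nid2, -0.41 to 0.039 for Hspg2, -0.0545 to 1.08 for Agrn, -0.12 to 0.56 for Lama4 and -0.26 to 1.50 for Lamc1. Day 5 against day 0 ranged from -0.44 to 0.070 for Hspg2 and -0.0047 to 0.31 for Agrn. With the knockdown label, day 3 against day 0 ranged from -0.23 to 0.36 for Nid1, day 5 against day 3 from -0.082 to 0.047 for Nid2 and -0.0795 to 0.044 for Lama4, and day 5 against day 0 from -0.41 to 0.17 for Nid1 and -0.11 to 0.25 for Hspg2. On log2 RPKM with pseudocounts of 1 and 0.1, limma gave 0.0495 and 0.063 for the average of Lamc1 and 0.12 and 0.12 for day 3 of Lama4. Nid2 averaged -0.045 without day 3, and Hspg2 from day 0 to day 3 in control was 0.022 with upper-quartile scaling and 0.011 with a minimum of 50 counts. Depth limits Nid1, with 23 to 47 counts per library labelled knockdown at days 0 to 5, and Lama5, with 0 to 21.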
